A study of Mus musculus with 14 samples.

Results

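The 9 genes described here are immediate early response genes, *Fos*, *Fosb*, *Jun*, *Junb*, *Egr1*, *Ier2*, *Dusp1*, *Nr4a1*, and *Zfp36*, taken by their gene symbols from 21878 genes with a deposited expression value in mouse kidney. All 9 were found in each of the 14 mice, and all 9 were among the 14912 genes that passed the filter on low values, which kept genes reaching 0.1 FPKM in 3 or more mice. FPKM scales sequenced fragments by transcript length and by the mapped fragments of the library, so levels can be compared between genes. The deposited values give no read depth, and no counting interval can be given.

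Kidneys came from male C57BL/6J mice in 4 groups, namely 3 WT control, 3 *Cfb*-/- control, 4 WT diabetic, and 4 *Cfb*-/- diabetic mice. Diabetes was induced with a high-fat diet (HFD, 60% of calories from fat) for 4 weeks and streptozotocin (STZ), a toxin of insulin-producing cells, injected at 60 mg/kg on 5 days, whereas control mice ate chow with 10% of calories from fat and were injected with citrate buffer alone. According to the methods the mice were 8 weeks old when the diets began and were killed 21 weeks after STZ, while the labels give a time of 34 weeks with no starting point. The labels also call the genotype a knockdown and give control mice the same treatment entry as diabetic mice, so that groups were read from the sample titles. *Cfb* encodes complement factor B, a protease of the alternative pathway of complement. Its deletion was in the whole body, and the mice labelled *Cfb*-/- had 1.13 to 2.22 FPKM of *Cfb*, against 56.7 to 131 FPKM in WT mice. Markers of proximal tubule, the most abundant cell type of the renal cortex, summed to 2125 to 8062 FPKM over 8 genes, while markers of the adrenal gland summed to at most 0.406 FPKM over 5 genes in any mouse.

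Immediate early response genes are transcribed within minutes of a stimulus, before any new protein has to be made. Growth factors, stress, and cytokines reach them through the MAP kinases ERK, JNK, and p38, which act on factors already bound at their promoters, above all SRF with its ELK partners and CREB. Their transcripts are short-lived, and several of their products, such as the phosphatase DUSP1 and the RNA-binding protein ZFP36, shut the response down again. In kidney they are known as early markers of ischemic and toxic injury.

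Of the 9 genes, 7 had an entry in the RefSeq promoter table used here (assembly GRCm38.p6), and the 250 bases before the transcription start of that entry were read for these 7. The letters TGACG, which form the first part of the CRE, the site to which CREB binds, were searched on both strands, where the other strand reads CGTCA. At least 1 match was present in 17.77% of all 32851 promoter windows of this length, at least 2 in 3.90%, and at least 4 in 0.137%. *Nr4a1* held 4 matches, *Dusp1* 3, *Fos* 2, *Fosb* 1, and *Junb* 1, whereas *Jun* and *Zfp36* held 0. The full CRE, TGACGTCA, which contains a TGACG match on each strand, was present in *Dusp1* and in 1.55% of all windows, and a CArG box, the site of SRF, was present in *Zfp36* and in 1.47% of all windows. A match is a description of letters and not a bound site. The 3 windows below are shown because *Nr4a1* differed most between the genotypes in diabetic mice, because *Fos* changed most with diabetes in WT mice, and because *Dusp1* carried the full CRE. They are written 5′ to 3′ on the strand of the gene, with TGACG and CGTCA in capitals, and lie at chr15:101266596-101266845 (plus strand), chr12:85473640-85473889 (plus strand), and chr17:26508473-26508722 (minus strand), in that order. The windows of *Fos* and *Dusp1* end at the edge of the annotated gene, whereas that of *Nr4a1* precedes a later start within the gene, which spans chr15:101253902-101274795. The window of *Fosb*, which is not shown, lies in part within its annotated gene.
Nr4a1: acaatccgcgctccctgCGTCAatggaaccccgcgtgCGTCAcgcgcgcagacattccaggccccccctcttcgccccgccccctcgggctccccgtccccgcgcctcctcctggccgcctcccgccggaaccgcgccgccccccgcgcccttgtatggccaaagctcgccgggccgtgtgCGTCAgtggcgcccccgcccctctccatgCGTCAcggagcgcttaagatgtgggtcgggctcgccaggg
Fos: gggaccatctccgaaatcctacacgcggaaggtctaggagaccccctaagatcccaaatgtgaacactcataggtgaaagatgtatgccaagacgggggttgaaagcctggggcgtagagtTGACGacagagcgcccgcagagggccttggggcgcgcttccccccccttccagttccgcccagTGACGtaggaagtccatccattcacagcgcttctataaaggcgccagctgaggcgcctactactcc
Dusp1: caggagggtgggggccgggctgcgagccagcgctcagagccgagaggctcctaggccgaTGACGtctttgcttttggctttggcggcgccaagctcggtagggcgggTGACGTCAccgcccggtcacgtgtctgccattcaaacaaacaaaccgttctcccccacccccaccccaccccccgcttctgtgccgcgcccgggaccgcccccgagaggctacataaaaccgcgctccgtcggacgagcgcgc

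In the mean of the 14 mice, *Zfp36* stood highest of the 9 genes at 23.6 FPKM, followed by *Dusp1* at 22.9, *Jun* at 18.98, *Junb* at 16.2, *Egr1* at 15.7, and *Ier2* at 10.9 FPKM. *Fos* at 3.53 and *Nr4a1* at 3.51 FPKM were lower, and *Fosb* at 0.241 FPKM was near the filter. The median spread between mice was wider for the 9 genes than for all tested genes in each group, and it was widest in *Cfb*-/- control mice. There the SD of log2(FPKM + 0.1) had a median of 1.14 over the 9 genes, against 0.20 over all tested genes, and all 9 genes lay above the latter. The corresponding medians were 0.51 against 0.20 in *Cfb*-/- diabetic mice, 0.37 against 0.26 in WT control mice, and 0.28 against 0.18 in WT diabetic mice. In these groups 8, 5, and 6 of the 9 genes lay above the median of all tested genes.

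*Fos* encodes the founding partner of JUN in the transcription factor AP-1. It was measured at 0.463, 0.734, and 0.194 FPKM in WT control mice 1 to 3 and at 0.660, 18.03, and 2.44 FPKM in *Cfb*-/- control mice 1 to 3. In diabetic mice 1 to 4 it was measured at 1.73, 2.64, 2.43, and 2.71 FPKM in WT mice and at 4.66, 7.66, 2.55, and 2.52 FPKM in *Cfb*-/- mice. All WT diabetic mice were above all WT control mice, as was the case for 35.5% of all tested genes. The *Cfb*-/- control mice ran from the WT control range to the highest value of all 14 mice. *Fosb*, a close relative of *Fos*, was measured at 0.0739, 0.0155, and 0.115 FPKM in WT control mice and at 0.0607, 0.568, and 0.335 FPKM in *Cfb*-/- control mice. Diabetic mice had 0.147, 0.146, 0.124, and 0.168 FPKM in the WT group and 0.407, 0.585, 0.301, and 0.329 FPKM in the *Cfb*-/- group. Each *Cfb*-/- diabetic mouse was therefore above each WT diabetic mouse, at levels of *Fosb* close to the pseudocount of 0.1 FPKM. The same held for 1.86% of all tested genes.

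*Jun* encodes JUN, the other partner in AP-1. Its values were 10.8, 8.37, and 7.74 FPKM in WT control mice and 6.43, 22.4, and 28.1 FPKM in *Cfb*-/- control mice. With diabetes they were 19.97, 17.5, 15.2, and 20.5 FPKM in WT mice and 30.9, 35.3, 21.1, and 21.4 FPKM in *Cfb*-/- mice. The WT control, WT diabetic, and *Cfb*-/- diabetic groups followed each other without overlap, and the *Cfb*-/- control mice ran from below the WT control mice into the range of the *Cfb*-/- diabetic mice. Of all tested genes, 35.5% were higher without overlap in WT diabetic than in WT control mice. For *Cfb*-/- diabetic above WT diabetic mice the share was 1.86%, and the share for both steps together was not computed. *Junb*, whose product competes with JUN within AP-1, had 7.16, 8.73, and 8.38 FPKM in WT control mice and 6.15, 36.3, and 8.70 FPKM in *Cfb*-/- control mice. In diabetic mice it had 16.7, 15.6, 16.1, and 20.5 FPKM in the WT group and 25.9, 29.9, 10.97, and 15.6 FPKM in the *Cfb*-/- group. WT diabetic mice again lay above all WT control mice, and the genotypes overlapped in diabetic mice.

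*Egr1* encodes a zinc finger factor that is induced through SRF and ELK. WT control mice had 3.41, 5.06, and 2.30 FPKM, and *Cfb*-/- control mice had 3.04, 96.1, and 15.6 FPKM. WT diabetic mice had 10.6, 9.82, 4.96, and 6.03 FPKM, and *Cfb*-/- diabetic mice had 14.3, 30.8, 9.89, and 7.503 FPKM. *Egr1* overlapped between each pair of groups compared, with its highest value in the second *Cfb*-/- control mouse, 31.6 times that of the first mouse of the same group. *Nr4a1* encodes the orphan nuclear receptor NUR77, which curbs inflammatory gene expression in macrophages. It was measured at 0.786, 1.01, and 0.757 FPKM in WT control mice and at 0.854, 7.92, and 2.65 FPKM in *Cfb*-/- control mice. Diabetic mice had 2.74, 1.98, 2.45, and 1.66 FPKM in the WT group and 6.62, 7.95, 8.002, and 3.74 FPKM in the *Cfb*-/- group. As for *Jun*, WT control, WT diabetic, and *Cfb*-/- diabetic mice followed each other without overlap, an order whose share over all tested genes was not computed.

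*Ier2* encodes a nuclear protein of the early response to growth factors. It had 5.89, 10.7, and 7.23 FPKM in WT control mice, 6.08, 24.9, and 6.98 FPKM in *Cfb*-/- control mice, 8.92, 7.49, 9.62, and 12.2 FPKM in WT diabetic mice, and 17.5, 19.3, 7.34, and 8.75 FPKM in *Cfb*-/- diabetic mice. Only the first 2 *Cfb*-/- diabetic mice and the second *Cfb*-/- control mouse exceeded 15 FPKM. *Dusp1* encodes a phosphatase that inactivates the MAP kinases. Its values were 18.7, 17.5, and 28.2 FPKM in WT control mice, 12.3, 23.0, and 22.5 FPKM in *Cfb*-/- control mice, 17.7, 30.0, 32.1, and 16.6 FPKM in WT diabetic mice, and 27.7, 26.3, 25.7, and 23.1 FPKM in *Cfb*-/- diabetic mice. The group means of *Dusp1* lay within 19.2 to 25.7 FPKM. *Zfp36* encodes tristetraprolin, which marks AU-rich mRNAs such as that of TNF for decay. It had 24.5, 18.2, and 18.8 FPKM in WT control mice, 16.8, 43.2, and 25.6 FPKM in *Cfb*-/- control mice, 21.7, 21.3, 20.3, and 21.6 FPKM in WT diabetic mice, and 24.8, 28.8, 25.0, and 19.9 FPKM in *Cfb*-/- diabetic mice. Its WT diabetic mice differed by a factor of 1.07 between lowest and highest.

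**Figure D1:**
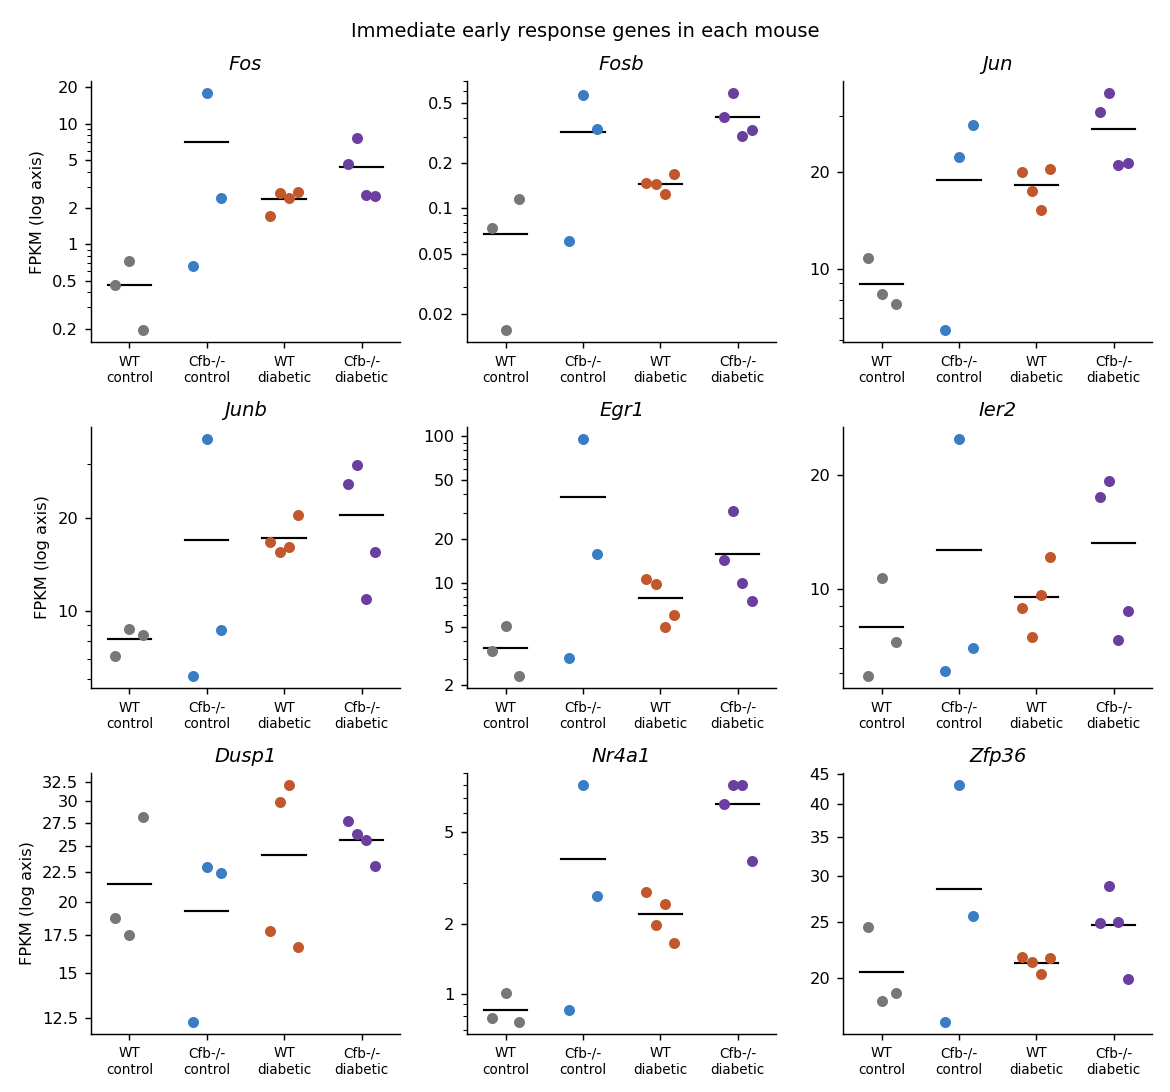
FPKM of the 9 genes (log axes) in the 4 groups, with a point for each mouse and a line at the group mean. The second *Cfb*-/- control mouse is the highest of all 14 mice for *Fos* (18.03 FPKM) and *Egr1* (96.1 FPKM), and for *Nr4a1* the *Cfb*-/- diabetic mice (3.74 to 8.002 FPKM) lie above the WT diabetic mice (1.66 to 2.74 FPKM). The latter order held for 1.86% of all tested genes.

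The first comparison asked how diabetes changed these genes in WT mice. *Fos* and *Jun* rose, *Fos* by 2.24 on the log2 scale (SE 0.76) and *Jun* by 1.03 (SE 0.37), with Benjamini-Hochberg adjusted p values of 0.0263 and 0.0350 from limma over all tested genes. These 2 of 9 genes stand beside 36.2% of all tested genes that were called higher and 46.1% called in either direction. *Nr4a1* with a log2 difference of 1.26 (SE 0.50, adjusted p = 0.0506 from limma) and *Junb* with 1.08 (SE 0.46, adjusted p = 0.0680) lay just beyond the threshold. *Egr1* had a difference of similar size, 1.10, but an SE of 0.81 and an adjusted p of 0.273 in limma. *Fosb* differed by 0.59, *Ier2* by 0.29, *Dusp1* by 0.14, and *Zfp36* by 0.06 on the log2 scale, and none of these passed the test. In a bulk sample of kidney, fewer cells that express a gene and less of its RNA per cell cannot be told apart.

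All 9 estimates were above 0, as were 69.7% of those of all tested genes, and the median was 1.03 for the 9 genes and 0.29 for all. Median-ratio scaling and quantile normalization, which bring the median gene close to 0 by construction, gave 0.03 and -0.05 for all genes. Relative to the median gene, *Fos* differed by 1.95 and *Jun* by 0.74, whereas *Ier2* differed by -0.00072, *Dusp1* by -0.15, and *Zfp36* by -0.22. In 5 genes, *Fos*, *Fosb*, *Jun*, *Junb*, and *Nr4a1*, each diabetic mouse was above each control mouse, as was the case for 35.5% of all tested genes. For each of these 5 genes the exact two-sided permutation p was 0.0286, the smallest that 4 mice against 3 allow. The study called genes by a P under 0.05 together with a fold change over 2 or under 0.5, and P was taken here as unadjusted. These cutoffs were applied here to limma on log2(FPKM + 0.1) and not to the authors' count test, so the counts are not the study's own calls. By these criteria 4 of the 9 genes were higher (*Fos*, *Jun*, *Junb*, and *Nr4a1*), against 15.6% of all tested genes.

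The threshold was passed by a small margin, and with single mice left out it was passed by 0 to 2 genes. The number was 0 without the second or the fourth WT diabetic mouse or the third WT control mouse and 1 without the first WT diabetic or the second WT control mouse. With single mice left out, the share of all tested genes called higher ran from 24.9% without the second to 38% without the first WT control mouse. By the study's criteria it was 0 without the third WT control mouse, 1 without the first WT diabetic mouse, and 2 without the fourth WT diabetic or the first or second WT control mouse. When WT mice were fitted alone, without the wide spread of the *Cfb*-/- mice, 5 of the 9 genes were called higher, namely *Fos*, *Jun*, *Junb*, *Nr4a1*, and *Egr1*, beside 30.6% of all tested genes.

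**Figure D2:**
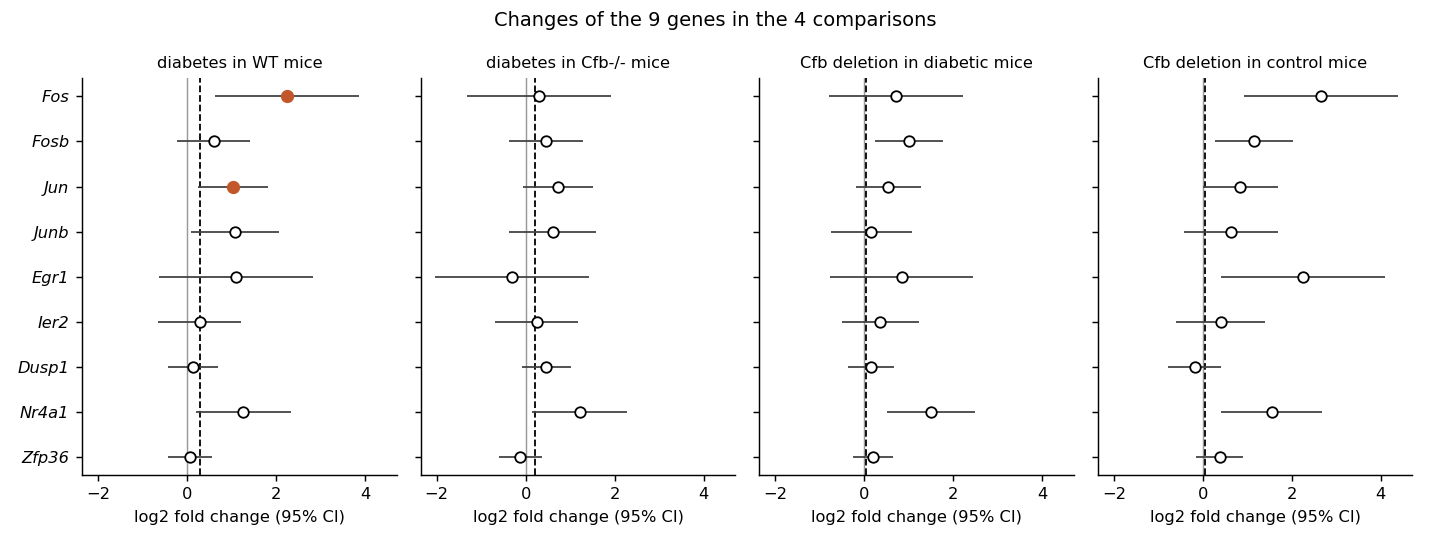
Log2 fold changes of log2(FPKM + 0.1) with 95% confidence intervals from limma for the 9 genes in 4 comparisons. Filled points have an adjusted p under 0.05, the grey line is at 0, and the dashed line is the median of all 14912 tested genes. Only *Fos* (2.24) and *Jun* (1.03) in the comparison of WT mice are filled, and the *Fos* and *Egr1* intervals are the widest.

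The same comparison in *Cfb*-/- mice called 0 of the 9 genes in limma, against 33.8% of all tested genes called in either direction and 27.4% called higher. An unadjusted p under 0.05 in limma was reached by 1 of the 9, *Nr4a1*, and by 43.5% of all tested genes. *Nr4a1* differed by 1.21 on the log2 scale (SE 0.50, adjusted p = 0.0745) and was the 1 gene at the study's criteria, where 13.3% of all tested genes were higher. The other log2 differences were 0.73 for *Jun*, 0.61 for *Junb*, 0.47 for *Dusp1*, 0.46 for *Fosb*, 0.29 for *Fos*, 0.25 for *Ier2*, -0.12 for *Zfp36*, and -0.31 for *Egr1*, with a median over the 9 genes of 0.46 against 0.22 for all tested genes. *Dusp1* was the single gene in which each diabetic mouse was above each control mouse, which held for 33.6% of all tested genes.

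These values rested on the second *Cfb*-/- control mouse. Without it, 3 of the 9 genes were called higher in limma, beside 19.9% of all tested genes, *Nr4a1* with a log2 difference of 1.98 (adjusted p = 0.00215), *Junb* with 1.37 (adjusted p = 0.00580), and *Fos* with 1.53 (adjusted p = 0.0492), and the differences of *Egr1* and *Zfp36* turned to 0.95 and 0.24. Without the first mouse of that group *Fos* turned to -0.76. Leaving out the third *Cfb*-/- control mouse called *Jun*, with a difference of 1.14 (beside 25.1% of all tested genes called higher), and leaving out the fourth *Cfb*-/- diabetic mouse called *Nr4a1*, with 1.46 (beside 27.3%). By the study's criteria 3 genes were higher without the second control mouse, beside 12.3% of all tested genes. The count was 0 without diabetic mouse 2 or 3, beside 12% and 15.2% of all tested genes.

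The interaction of genotype with diabetes, which tests whether the diabetes difference is the same in both genotypes, called 0 of the 9 genes and 0 of all 14912 tested genes in limma, with an unadjusted p under 0.05 in 0 of the 9 and in 5.77% of all. It was most negative for *Fos*, at -1.95 on the log2 scale (SE 1.07, adjusted p = 0.779 from limma), with an exact permutation p of 0.35. For *Egr1* it was -1.41 (SE 1.14, adjusted p = 0.786 from limma), with an exact permutation p of 0.503. The other 7 genes had values from -0.47 to 0.33. The 95% confidence interval of *Fos* ran from -4.24 to 0.34, and that of *Egr1* from -3.86 to 1.04. By the study's criteria 0 of the 9 genes differed, beside 1.77% of all tested genes, and without the first *Cfb*-/- control mouse 2 did, beside 1.71%.

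Deletion of *Cfb* in diabetic mice gave the comparison at which the study was aimed. None of the 9 genes passed the adjusted threshold in limma, where *Cfb* itself was the 1 gene called (0.00671% of those tested). An unadjusted p under 0.05 in limma was reached by 2 of the 9 genes and by 3% of all tested genes. For *Nr4a1* the *Cfb*-/- group had 6.58 ± 1.99 FPKM (SD, n = 4) and the WT group 2.21 ± 0.481 FPKM (SD, n = 4). Its log2 difference of 1.496 (SE 0.46) had an unadjusted p of 0.00577 in limma and, over all genes, an adjusted p of 1. For *Fosb* the *Cfb*-/- group had 0.406 ± 0.128 FPKM (SD, n = 4) and the WT group 0.146 ± 0.0182 FPKM (SD, n = 4). Its log2 difference of 1.01 (SE 0.36) reached an unadjusted p of 0.0130 in limma, with an adjusted p of 1. These 2 genes met the study's criteria, as did 0.0738% of all tested genes in the same direction. Without *Cfb*-/- diabetic mouse 1 or 2 or WT diabetic mouse 3, 1 of the 9 did so, beside 0.0738%, 0.0738%, and 0.101% of all tested genes. With the limma p values used here, 71 genes met these criteria in either direction, and the paper's count test called more genes in this comparison.

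*Nr4a1*, *Fosb*, and *Jun* were higher in each *Cfb*-/- diabetic mouse than in each WT diabetic mouse, which held for 1.86% of all tested genes. Each of these 3 genes had an exact two-sided permutation p of 0.0286, the smallest value for 4 mice against 4. *Jun* had 27.2 ± 7.07 FPKM (SD, n = 4) and 18.3 ± 2.43 FPKM (SD, n = 4), with a log2 difference of 0.54 (SE 0.34). The remaining genes had log2 differences of 0.84 for *Egr1*, 0.71 for *Fos*, 0.37 for *Ier2*, 0.20 for *Zfp36*, 0.16 for *Junb*, and 0.15 for *Dusp1*, and their groups overlapped. All 9 estimates were thus above 0, as were 60.9% of those of all tested genes, and their median was 0.54 against 0.04 for all.

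Over the 9 genes together, the mean of log2(FPKM + 0.1) spanned 2.83 to 3.81 among *Cfb*-/- diabetic mice, above the 2.61 to 2.68 of WT diabetic mice. Within the *Cfb*-/- group the first 2 mice, at 3.46 and 3.81, stood above the other 2, at 2.95 and 2.83. Some of the summed cell type markers divided the same mice. In mice 1 to 4, proximal tubule markers summed to 2125, 2221, 3285, and 3353 FPKM, macrophage markers to 412, 382, 225, and 283 FPKM, podocyte markers to 171, 165, 113, and 109.8 FPKM, and smooth muscle and pericyte markers to 124.4, 123.8, 86.1, and 93.7 FPKM. Endothelium, injured tubule, and inner medulla sums also divided them. Sums of other lists did not, such as thick limb and distal tubule (1649, 1771, 1767, and 1673 FPKM) and T and B cells (6.25, 7.39, 2.41, and 6.93 FPKM). In WT diabetic mice 1 to 4, macrophage markers summed to 342, 277, 257, and 382 FPKM and podocyte markers to 151, 97.1, 90.3, and 164 FPKM. The part of these cell types in the levels of the 9 genes was not tested. *Cfb*-/- diabetic mouse 2 was the highest of its group in 7 of the 9 genes. Without it the differences were 1.39 for *Nr4a1* and 0.85 for *Fosb*, and *Junb* turned to -0.06.

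The diabetic groups also differed in markers of other tissue. By the study's criteria 7 of 7 urothelium markers, 4 of 6 adipocyte markers, and 1 of 6 markers of T and B cells were lower in *Cfb*-/- than in WT diabetic mice, none of them at the adjusted threshold in limma. Of all tested genes, 0.476% met these criteria in either direction. Urothelium markers summed to 1.30 to 3.58 FPKM in *Cfb*-/- diabetic mice and to 0.721, 36.9, 51.1, and 17.996 FPKM in WT diabetic mice 1 to 4, of which the first was below and the other 3 above all *Cfb*-/- diabetic mice. Adipocyte markers summed to 32.3 to 44.03 FPKM and 55.3 to 97.5 FPKM in the 2 groups, without overlap. The part of these tissues in the differences of *Nr4a1*, *Fosb*, and *Jun* was not tested.

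The deletion in control mice again called 0 of the 9 genes in limma, with *Cfb* as the 1 gene called (0.00671%). Of the 9 genes, 4 had an unadjusted p under 0.05 in limma, as did 17.5% of all tested genes. These 4 also had the largest differences, 2.66 for *Fos* (SE 0.81), 2.26 for *Egr1* (SE 0.86), 1.55 for *Nr4a1* (SE 0.53), and 1.15 for *Fosb* (SE 0.41) on the log2 scale, with adjusted p values of 0.244 to 0.250 from limma. They met the study's criteria, which 0.946% of all tested genes did in the same direction. The groups overlapped in all 9 genes, whereas 6.67% of all tested genes were higher in each *Cfb*-/- control mouse than in each WT control mouse. With 3 mice against 3, an exact permutation p cannot go below 0.1.

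The *Cfb*-/- control mice did not form a group with a common level. Mouse 1 was the lowest of the 3 in all 9 genes and mouse 2 was the highest in 8, and the mean of log2(FPKM + 0.1) over the 9 genes was 1.58, 4.16, and 2.84 in mice 1, 2, and 3. The WT control mice had 1.78, 1.90, and 1.67. Without mouse 2 the differences were 1.43 for *Fos* and 0.996 for *Egr1*, and 1 gene met the study's criteria, beside 2.01% of all tested genes that were higher. Without mouse 1 *Jun* was called, with a difference of 1.49 and an adjusted p of 0.0362 in limma (beside 0.0671% of all tested genes called), and 6 genes met the study's criteria, beside 0.986% of all tested genes that were higher. With all mice fitted, 2 of 7 urothelium, 2 of 8 injured tubule, and 1 of 5 inner medulla markers were higher in *Cfb*-/- than in WT control mice by these criteria. The share was 0.946% of all tested genes, and the part of these markers was not tested.

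Heat shock genes were also high in 2 of the *Cfb*-/- control mice. Their products are chaperones, of which HSPA1A and HSPA1B are the inducible forms of HSP70. *Hspa1a* was measured at 3.13, 103, and 37.3 FPKM in *Cfb*-/- control mice 1, 2, and 3 and at 3.17 to 10.7 FPKM in the mice of the other groups. For *Hspa1b*, a near-identical copy with which reads may be shared, these mice had 7.12, 161, and 60.3 FPKM, against 4.55 to 33.9 FPKM in the mice of the other groups. The mean of log2(FPKM + 0.1) over 10 heat shock genes was 7.05 in mouse 2 and 6.46 in mouse 3 of the *Cfb*-/- control group and 5.03 to 5.90 in the other 12 mice. In diabetic mice it overlapped between the genotypes, with 5.40 to 5.83 in *Cfb*-/- mice and 5.38 to 5.90 in WT mice. Of the 10 heat shock genes, 1 rose and 2 fell with diabetes in WT mice, and 1 rose and 3 fell in *Cfb*-/- mice. Of all tested genes, 36.2% and 27.4% rose, and 46.1% and 33.8% were called in either direction. Between the genotypes 0 of the 10 were called in limma. By the study's criteria 2 were higher in *Cfb*-/- than in WT control mice, beside 0.946% of all tested genes. In diabetic mice 0 differed between the genotypes by these criteria, beside 0.476% in either direction. In the interaction 2 met these criteria with negative values, beside 1.77% in either direction. The part of a heat shock response in the values of the *Cfb*-/- control mice was not tested.

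**Figure D3:**
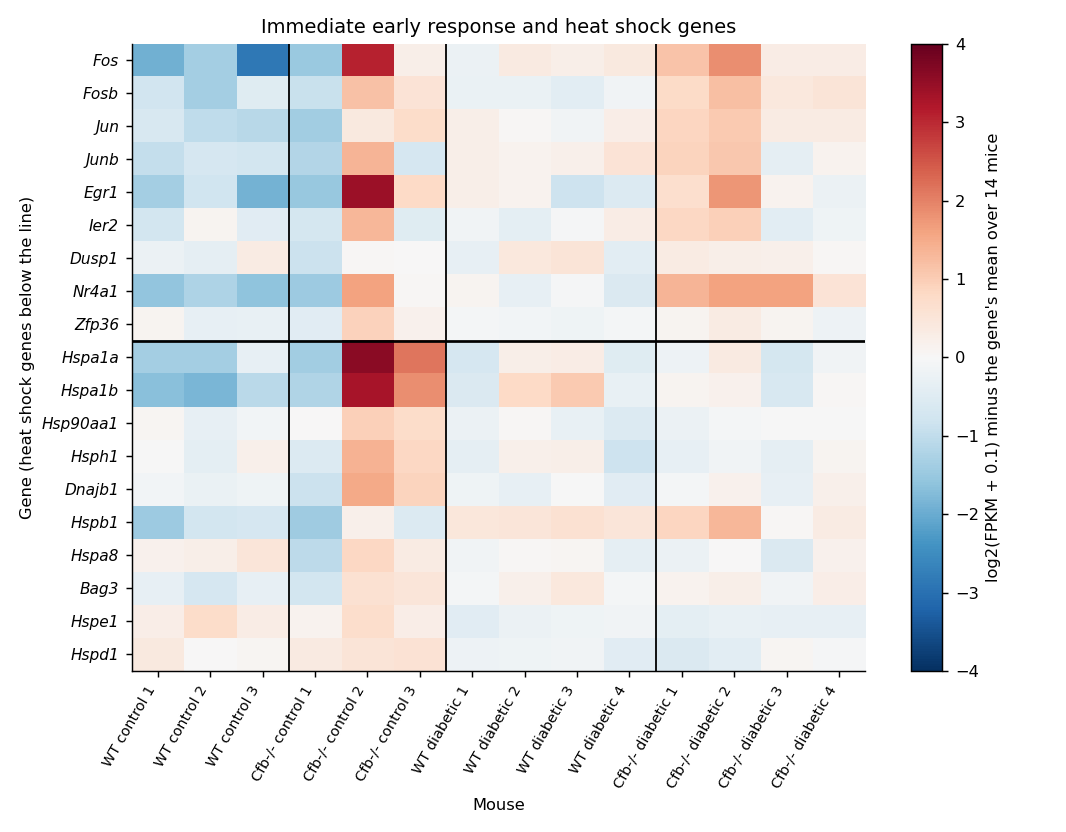
Log2(FPKM + 0.1) of the 9 immediate early response genes (above the line) and 10 heat shock genes (below it) in each mouse, as the difference from the mean of the gene over all 14 mice. The columns of *Cfb*-/- control mice 2 and 3 are high for *Hspa1a* (103 and 37.3 FPKM), and mouse 2 is also high for *Fos* and *Egr1*. In *Cfb*-/- diabetic mice *Hspa1a* is at 5.09 to 10.7 FPKM, and *Hspb1* has its highest value of all 14 mice in *Cfb*-/- diabetic mouse 2 (81.2 FPKM).

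The 9 genes also varied together within groups. After the group means were removed, the Pearson correlation of a gene with the mean of the other 8 over the 14 mice was 0.947 for *Egr1*, 0.938 for *Fos*, 0.911 for *Zfp36*, 0.889 for *Junb*, 0.885 for *Nr4a1*, 0.833 for *Fosb*, 0.798 for *Ier2*, 0.734 for *Jun*, and 0.408 for *Dusp1*. Without the second *Cfb*-/- control mouse, which was far from the rest, the correlations were 0.291 for *Dusp1* and 0.524 to 0.873 for the other 8. These values describe 14 mice whose genes were read from the same library, and they are given without a test.

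Outside the 9 genes, those whose log2 values followed the mean of the 9 most closely over the 14 mice, of 11373 genes compared, were *Cyr61* (r = 0.954), a matricellular gene that is itself induced early, *Zfp36l1* (r = 0.882), a paralog of *Zfp36*, *Ddit3* (r = 0.880), which encodes the ER stress factor CHOP, *Serpinh1* (r = 0.872), a collagen chaperone, and *Phlda1* (r = 0.857). With group means removed, the closest were *Cyr61* (r = 0.941), *Atf3* (r = 0.940), a stress-induced partner of JUN, *Zbed3* (r = 0.934), *Serpinh1* (r = 0.921), and *Gdf15* (r = 0.899), a stress cytokine. This order rested on the second *Cfb*-/- control mouse. Without it the closest were *Fam189a2* (r = 0.936, against -0.06 with that mouse) and *Rsl24d1* (r = 0.902), while *Atf3* had 0.898, *Cyr61* 0.895, *Serpinh1* 0.874, *Zbed3* 0.839, and *Gdf15* 0.724. *Cyr61* had 16.2, 19.1, and 17.5 FPKM in WT control mice, 15.6, 78.6, and 42.6 FPKM in *Cfb*-/- control mice, 35.3, 27.2, 25.4, and 20.2 FPKM in WT diabetic mice, and 60.9, 69.9, 43.1, and 38.9 FPKM in *Cfb*-/- diabetic mice. *Cyr61* was picked for its likeness to the 9 genes, so that its values are a description and no further support for their pattern.

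Further genes of the early response and of its feedback were read from 6 lists that leave out the 9 genes. The lists were chosen with earlier results of these data known. Of 60 that were tested, 41 (68.3%) rose and 1 fell in WT mice, and 40 (66.7%) rose and 1 fell in *Cfb*-/- mice, against 36.2% and 27.4% of all tested genes that rose. The gene that fell in both was *Errfi1*, an inhibitor of the EGF receptor. Over these 60 genes the log2 difference had a median of 0.97 in WT and of 0.95 in *Cfb*-/- mice. The counts of genes that rose were 35 and 34 after median-ratio scaling, beside 22.7% and 18.5% of all tested genes, and 30 and 32 after quantile normalization, beside 15.9% and 14.4%. Without the second *Cfb*-/- control mouse the count in *Cfb*-/- mice was 40. Some of the 60 genes, such as *Fosl1* and *Ptgs2*, passed the filter only through diabetic mice, which favors a rise. With a filter at 1 FPKM, which can select in the same way, 35 and 34 of 53 genes rose in WT and *Cfb*-/- mice. Of all tested genes, 35.3% and 25.9% then rose. Markers of injured tubule rose in the same comparisons, in 8 of 8 genes in both genotypes, and macrophage markers rose in 8 of 8 genes in WT and 7 of 8 in *Cfb*-/- mice. Summed levels were 374 to 499 FPKM in control and 1509.6 to 2991 FPKM in diabetic mice for injured tubule and 56.8 to 88.8 and 225 to 412 FPKM for macrophages. In WT and *Cfb*-/- mice, respectively, 6 and 4 of 6 smooth muscle and pericyte markers rose, 5 and 6 of 8 of endothelium, 2 and 6 of 6 of podocytes, 5 and 3 of 6 of T and B cells, 7 and 0 of 7 of urothelium, 6 and 1 of 6 of adipocytes, 3 and 0 of 6 of collecting duct, 2 and 2 of 6 of thick limb and distal tubule, 1 and 0 of 5 of inner medulla, and 1 and 1 of 4 of neutrophils. Of 8 proximal tubule markers, 5 fell in WT and 6 in *Cfb*-/- mice, and 1 neutrophil marker fell in *Cfb*-/- mice. The part of these cell types in the counts was not tested.

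Among the other AP-1 and ATF factors, 6 of 8 genes rose in WT and 7 of 8 in *Cfb*-/- mice. *Fosl2*, a FOS relative with slower kinetics, was measured at 1.89 ± 0.467 FPKM (SD, n = 3) in WT control and 7.79 ± 1.39 FPKM (SD, n = 4) in WT diabetic mice. Its log2 difference was 2.002 (SE 0.19, adjusted p = 6.85e-06 from limma) in WT mice and 1.73 (SE 0.19) in *Cfb*-/- mice. *Atf3* rose by 2.24 in WT and 2.37 in *Cfb*-/- mice, *Fosl1* by 2.31 in both, and *Batf* by 2.41 and 1.94. In WT and *Cfb*-/- control mice *Fosl1* had means of 0.031 and 0.040 FPKM and *Batf* of 0.158 and 0.256 FPKM. At such levels the differences depend on the pseudocount of 0.1 FPKM. *Maff*, a small MAF factor, rose by 1.34 and 1.95. The *Cfb*-/- control mice, which were far apart for *Fos*, had 2.23 to 2.97 FPKM of *Fosl2*.

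Of the 4 tested EGR and NR4A relatives, 3 rose in WT and 2 in *Cfb*-/- mice. *Nr4a2* rose by 1.42 in WT and 1.82 in *Cfb*-/- mice, and *Nr4a3* by 1.64 and 1.53. Both *Nr4a2*, at 0.0775 to 0.574 FPKM, and *Nr4a3*, at 0.0451 to 0.522 FPKM between group means, were expressed at much lower levels per transcript length than *Nr4a1*. *Egr2* rose by 1.53 in WT mice, and its difference of 0.81 in *Cfb*-/- mice had an adjusted p of 0.140 in limma. Its mean in WT control mice was 0.0558 FPKM, below the pseudocount.

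Of 13 other early transcription factors, 8 rose in WT and 9 in *Cfb*-/- mice. *Klf6*, a factor of the injury response, rose by 1.82 (SE 0.20) and 1.84 (SE 0.20), and *Ier5*, a relative of *Ier2*, by 1.45 and 1.49. *Cebpd*, an acute phase factor, rose by 1.17 and 1.87. *Myc* rose by 1.12 and 1.35, and *Klf4* by 1.11 and 1.52. Among 20 early genes that do not encode transcription factors, 12 rose and 1 fell in each genotype. *Plk2*, a stress-induced kinase, rose by 2.21 (SE 0.15) and 1.84 (SE 0.15), while *Gem*, a small GTPase, rose by 2.76 and 1.39 and *Ptgs2*, the inducible cyclooxygenase, by 2.09 and 1.39. *Ptgs2* was near the pseudocount, with means of 0.0479 and 0.118 FPKM in WT and *Cfb*-/- control mice. *Ctgf* rose by 1.12 and 1.82, *Sgk1* by 1.86 and 1.73, and *Gadd45b* by 1.39 and 1.57. *Arc* rose by 2.02 in WT mice, and its difference of 0.92 in *Cfb*-/- mice had an adjusted p of 0.0693 in limma.

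Feedback genes outside the 9 were called in part. Of 8 other dual-specificity phosphatases, 5 rose in each genotype, among them *Dusp8* by 1.86 and 2.02, *Dusp5* by 1.58 and 1.22, and *Dusp10* by 1.06 and 1.11, whereas *Dusp1* differed by 0.14 and 0.47 and was not called. Of 7 tested genes of the ZFP36 family and of NF-κB feedback, 7 rose in WT and 5 in *Cfb*-/- mice. *Socs3*, the inhibitor of cytokine signaling, rose by 2.23 and 2.01, *Nfkbiz* by 1.74 and 1.49, and *Tnfaip3*, which encodes A20, by 1.48 and 1.29, beside 0.06 and -0.12 for *Zfp36*. Upstream of these genes, 11 of 27 tested kinases and SRF, ELK, and CREB factors rose and 2 fell in WT mice, and 8 rose and 2 fell in *Cfb*-/- mice. These shares were near those of all tested genes, and the largest differences in both genotypes included *Elk3* (0.88 and 1.05) and *Rps6ka1* (0.86 and 0.81).

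**Figure D4:**
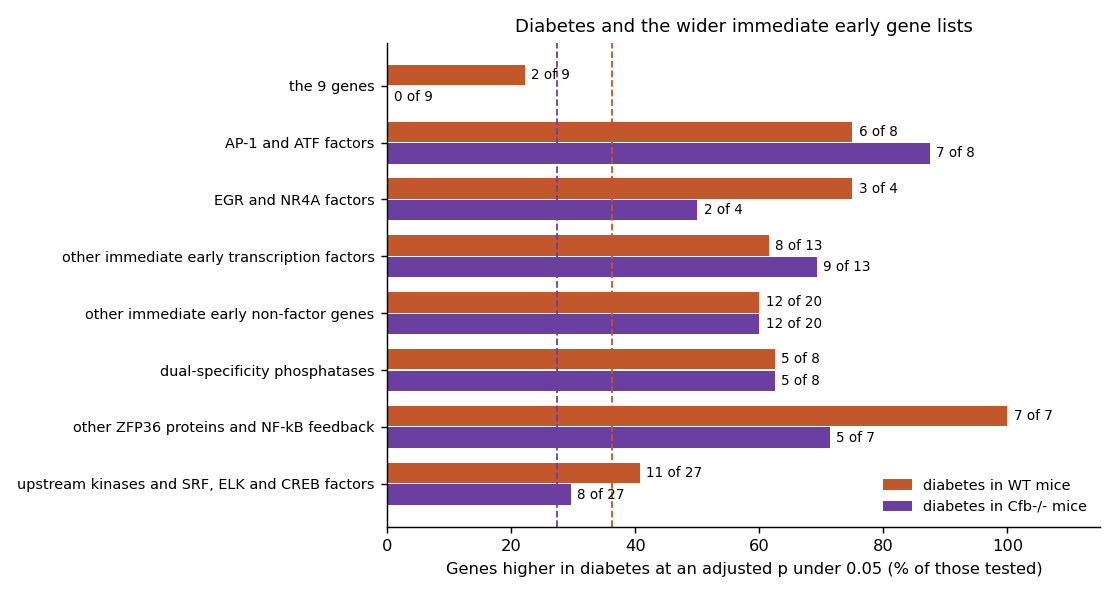
Share of tested genes that rose in diabetes (limma, adjusted p under 0.05), for the 9 genes, 6 further lists, and the upstream kinases and factors, with the number of genes beside each bar. Dashed lines mark the share over all tested genes, 36.2% in WT and 27.4% in *Cfb*-/- mice. The 9 genes (2 of 9 and 0 of 9) lie below these lines and the 6 further lists lie above them.

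With the deletion of *Cfb*, 0 of the 60 genes were called in limma in diabetic mice and 0 in control mice, with median log2 differences of 0.16 and 0.18 against 0.04 and 0.06 for all tested genes. At the study's criteria 0 of the 60 were higher in diabetic mice and 4 in control mice, beside 0.0738% and 0.946% of all tested genes. In diabetic mice *Fosl2* differed by 0.17 (SE 0.18), *Atf3* by 0.46 (SE 0.41), and *Ier3*, an early gene of cell survival, by 0.94 (SE 0.26, adjusted p = 1 from limma).

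Clock genes were read as well, since *Per1*, a repressor of the clock, is also an early response gene. *Per1* rose with diabetes by 1.01 (SE 0.29, adjusted p = 0.0121 from limma) in WT and by 1.201 (SE 0.29, adjusted p = 0.00532) in *Cfb*-/- mice, and *Bhlhe41*, another repressor of the clock, rose by 1.77 and 2.002. Of 13 tested clock genes, 3 rose in WT and 2 in *Cfb*-/- mice, against 36.2% and 27.4% of all tested genes. Their mean log2(FPKM + 0.1) was 1.56 to 2.20 in WT control, 1.59 to 1.72 in *Cfb*-/- control, 1.77 to 2.24 in WT diabetic, and 1.79 to 2.05 in *Cfb*-/- diabetic mice. This mean joins genes that peak at opposite times of day and can hide opposite differences. In *Cfb*-/- control mice 1 to 3, *Per2* had 1.21, 7.31, and 4.10 FPKM and *Nr1d1* had 18.7, 5.59, and 3.36 FPKM, so that single clock genes were far apart in this group. Their part in the values of the 9 genes was not tested.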

How the data were processed

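Kidney RNA of 14 mice was prepared by the authors as stranded mRNA libraries and sequenced from both ends, with samples of an RNA integrity number of at least 7 used. The authors deposited an FPKM value per gene and mouse for 21878 genes named by symbol. The unit was read from the deposited values, which are not whole numbers and sum to 330246 to 488196 per mouse. The submitters' processing notes list Trimmomatic, HISAT2, Cufflinks, HTSeq, and DESeq and the build GRCm38.p6. The authors' own differential test was made on counts, which were not used here. Read depth is unknown.

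Genes reaching 0.1 FPKM in 3 or more mice were kept (14912 genes), and log2(FPKM + 0.1) was fitted with limma (version 3.58.1, under R 4.3.3), taking a mean for each of 4 groups and letting the prior variance follow the expression level. The log2 scale with this pseudocount understates changes of genes near 0.1 FPKM. P values were adjusted over all tested genes (Benjamini-Hochberg), and genes with an adjusted p under 0.05 were called. Single genes were also tested with exact two-sided permutation tests. The labels number the mice of a group and say no more of how they were raised, and p values measure only the spread between these samples. No batch is given in the sources used here. The highest correlation within a group was 0.990, and 0 pairs of mice had identical values. The fit was tested on simulated data. Sequences came from RefSeq tables. Python 3.11.15 with numpy 2.4.6, pandas 2.3.3, and matplotlib 3.10.9 was used for tables and figures.

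The 9 genes and the gene lists were chosen with earlier results of these data known. Named genes are the 9 genes, up to 4 called genes per early response and upstream list by size of change, the 5 genes most like the mean of the 9 by 2 measures, and genes of the companion and marker lists on which a result turns. *Errfi1*, *Ier3*, and the values of *Fosl2* and *Atf3* under deletion, *Fam189a2*, *Rsl24d1*, *Per2*, and *Nr1d1* were added after their values had been seen. Further marker lists (distal tubule, collecting duct, inner medulla, podocytes, endothelium, smooth muscle, lymphocytes, neutrophils, adipocytes, and urothelium) were read and had 0 genes called at the adjusted threshold in either comparison of the genotypes, while their counts by the study's criteria are given with the results.

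The alternatives were pseudocounts of 1 and 0.01, no filter, a filter at 1 FPKM, median-ratio scaling, quantile normalization, a fit of only the groups compared, a block for the replicate number, and fits that omit 1 mouse at a time. The counts at the study's criteria and for the wider lists under these settings were added after the data had been seen.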

Additional observations from a re-analysis of the deposited data

How the results depend on the processing

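Of 578 log2 differences under the alternatives, 531 kept their direction and their side of the threshold, 15 lost and 12 gained significance, and 20 turned sign, of which 0 were called. These cover the 9 genes in the comparisons between groups, but only *Fos* and *Egr1* in the interaction. Except where stated, the causes were not tested.

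For diabetes in WT mice, the 2 genes called became 1 with a pseudocount of 1 or median-ratio scaling, 0 with no filter or quantile normalization, and 5 with WT mice alone. The shares of all tested genes called higher were 34.5%, 22.7%, 22.6%, 15.9%, and 30.6% in that order, and 36.2% in the main fit. By the study's criteria, the 4 genes became 1 with a pseudocount of 1 or median-ratio scaling and 0 with quantile normalization. The shares of all tested genes higher by these criteria were 5.38%, 10.9%, and 6.37%, against 15.6% in the main fit. By the same criteria, the 1 gene for diabetes in Cfb-/- mice became 0 with a pseudocount of 1, no filter, median-ratio scaling, quantile normalization, or the compared groups alone. Of all tested genes, 4.73%, 8.95%, 9.5%, 6.03%, and 13.2% were higher in these settings, against 13.3% in the main fit. The 2 genes for the deletion in diabetic mice became 1 with a pseudocount of 1, a filter at 1 FPKM, which removes *Fosb*, median-ratio scaling, or quantile normalization. Of all tested genes, 0.0134%, 0.0251%, 0.0536%, and 0.0536% were higher in these settings, against 0.0738% in the main fit. The 4 genes for the deletion in control mice became 1 with the compared groups alone, where 0.791% of all tested genes were higher, against 0.946% in the main fit. Signs turned with median-ratio scaling for *Dusp1* (-0.14) and *Zfp36* (-0.22) in WT mice, and with quantile normalization for *Fosb* (-0.085) in WT mice and for *Fos* (-0.063) and *Fosb* (-0.21) in Cfb-/- mice. The turns of *Dusp1* and *Zfp36* follow from the construction of that scaling, which shifts all genes of the comparison down together by more than these differences.

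With single mice left out, the genes called ranged from 0 to 2 for diabetes in WT mice, 0 to 3 in Cfb-/- mice, and 0 to 1 for the deletion in control mice, and stayed at 0 for the deletion in diabetic mice and the interaction. Of all tested genes, 24.9% to 38% and 19.9% to 27.5% were called higher for diabetes in WT and Cfb-/- mice. In either direction, 0.00671% to 11.5%, 0.00671% to 0.0402%, and 0% to 0.0268% were called in the other 3 comparisons, in the order above. By the study's criteria the ranges were 0 to 4, 0 to 3, 1 to 6, 1 to 2, and 0 to 2 in that order. Of all tested genes, 13.8% to 16.9%, 11.9% to 15.2%, 0.53% to 2.01%, and 0.0738% to 0.188% were higher by these criteria in the first 4 comparisons. In the interaction 1.36% to 2.87% met them in either direction. Medians over the 9 genes ranged from 0.83 to 1.11 for diabetes in WT mice, -0.12 to 0.95 in Cfb-/- mice, 0.60 to 1.49 and 0.39 to 0.65 for the deletion in control and diabetic mice, and -0.82 to 0.29 for the interaction. Differences that turned sign ranged from -0.76 to 1.53 for *Fos*, -0.12 to 0.90 for *Fosb*, -1.52 to 0.95 for *Egr1*, -0.12 to 0.89 for *Ier2*, and -0.44 to 0.24 for *Zfp36* in diabetes in Cfb-/- mice, and from -0.021 to 0.35 for *Dusp1* and -0.015 to 0.20 for *Zfp36* in WT mice. With the deletion they ranged from -0.060 to 0.42 for *Junb* and -0.0072 to 0.31 for *Dusp1* in diabetic mice, and from -0.14 to 1.13 for *Junb*, -0.24 to 0.77 for *Ier2*, and -0.33 to 0.11 for *Dusp1* in control mice.

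Groups shared replicate numbers, but the deviations of mice with the same number correlated at -0.388 to 0.243, and 2 of 13 correlated best with their own number, so that the numbers name mice and do not pair them. With the replicate number as a block, 1 gene was called for diabetes in Cfb-/- mice (*Nr4a1*, 1.40, adjusted p = 0.0451 from limma), beside 24.2% of all tested genes called higher. In the interaction 1 gene met the study's criteria, beside 1.65% of all tested genes. Read depth is unknown, which limits the low values of *Fosb* most.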
